A study of Mus musculus with 2 samples.

Results

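Foxp4 binding was examined around 10 genes of the canonical Wnt pathway, namely the ligand genes Wnt10b and Wnt2, the ligand-enhancing Rspo3, the receptor genes Lgr5, Fzd1 and Fzd8, the inhibitor genes Sfrp1 and Axin2, and the nuclear effector genes Tcf7l2 and Ctnnb1. Their sites were the peaks that the deposited list names for 1 of these genes, together with every peak within 100 kb of 1 of the gene bodies. This gave 15 of the 3317 peaks in the list, of which 11 were named for a member and 4 for a neighbouring gene. The genes had been chosen from this same list, largely because peaks were named for them, so the number of members with a peak describes the choice and was not tested.

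Foxp4 belongs to the forkhead transcription factors, and its sites were mapped by chromatin immunoprecipitation and sequencing (ChIP-seq) with a Foxp4 antibody. Stromal vascular fraction cells from the inguinal white fat of C57BL/6 mice were used, the non-fat-cell part of the tissue that holds the progenitors of adipocytes. They were grown for 3 days in 20% serum and then induced towards beige adipocytes for 48 h in 10% serum with 1 µM dexamethasone, a glucocorticoid, 0.5 mM isobutylmethylxanthine, which raises cAMP, 5 µg/ml insulin, the thyroid hormone T3 at 50 nM and the PPAR-gamma agonist troglitazone at 5 µM. The series held 1 ChIP library and 1 input DNA library of such cells, and the peak list of the ChIP library was the data analysed here. There was no replicate, no untreated culture and no cell without Foxp4, so the values carry no replicate error and no p-value is given. A peak list holds no expression values, and the labelled cell type could not be checked against its markers. Read depth is unknown.

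In canonical Wnt signalling a secreted Wnt protein binds a Frizzled receptor and its Lrp co-receptor, which stops the destruction of beta-catenin, the product of Ctnnb1. Beta-catenin then enters the nucleus and activates target genes through TCF/LEF proteins such as Tcf7l2. In fat tissue this pathway is known for holding progenitors in the undifferentiated state, and Wnt10b is its best known ligand there.

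The upstream promoter of Tcf7l2 was the 1 member promoter sequence found under a peak, and it is shown because exact forkhead words lay near the centre of that peak. RefSeq promoter sequences, on GRCm38.p6, the assembly behind mm10, were found for 6 of the 10 members (Wnt10b, Wnt2, Fzd1, Axin2, Ctnnb1 and Tcf7l2), and Rspo3, Sfrp1, Lgr5 and Fzd8 were not matched. The 250 bases before the start site are printed below for the upstream and the downstream start site of Tcf7l2 (chr19:55741560-55741809 and chr19:55895071-55895320, plus strand) and for Axin2 (chr11:108920099-108920348, plus strand), whose peak began 68 bp after the start site. Capitals mark the forkhead words TGTTTAC, or TATTTAC, or TGTTTAT, or TATTTAT, and the TCF/LEF words CTTTGAA and CTTTGAT, searched on both strands.
Tcf7l2, upstream start site, under a peak: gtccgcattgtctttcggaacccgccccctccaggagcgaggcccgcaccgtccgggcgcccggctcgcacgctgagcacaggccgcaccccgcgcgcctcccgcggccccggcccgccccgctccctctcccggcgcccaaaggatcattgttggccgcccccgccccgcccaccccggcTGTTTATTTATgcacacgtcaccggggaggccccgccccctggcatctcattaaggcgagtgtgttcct
Tcf7l2, downstream start site, no peak: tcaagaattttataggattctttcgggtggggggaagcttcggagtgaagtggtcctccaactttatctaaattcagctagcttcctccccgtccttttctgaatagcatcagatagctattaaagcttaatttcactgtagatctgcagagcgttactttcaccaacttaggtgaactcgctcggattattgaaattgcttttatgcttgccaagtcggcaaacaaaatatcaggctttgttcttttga
Axin2, peak just after the start site: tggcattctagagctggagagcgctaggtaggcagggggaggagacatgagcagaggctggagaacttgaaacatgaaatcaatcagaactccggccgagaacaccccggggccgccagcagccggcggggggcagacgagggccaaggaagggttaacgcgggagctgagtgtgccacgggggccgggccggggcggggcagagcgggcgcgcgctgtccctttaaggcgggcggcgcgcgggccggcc

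The upstream Tcf7l2 promoter held TGTTTAT at position -69 and TATTTAT at position -65, counted from the start site. The words overlap by 3 bases and form 1 run of 11 bases, chr19:55741741-55741751. The midpoint of the peak, position 55741750, fell on base 10 of that run. No other promoter window of the 6 members, each 250 bases before to 50 after a start site, held a forkhead word, and none held a TCF/LEF word. Across the genome 15.0% of 32851 promoter windows held 1 of the 4 forkhead words (TGTTTAT 4.6%, TATTTAT 5.6%) and 8.65% held 1 of the TCF/LEF words. A peak overlapped 245 of these windows (0.746%), and 30.2% of those 245 held a forkhead word. Windows of neighbouring start sites can share sequence, so these shares are descriptions without a test. A matching word is not by itself a bound site, and the absence of one says only that these letters are not in the window.

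Tcf7l2 encodes a TCF/LEF protein that carries beta-catenin to its target genes. It was the nearest gene of 2 peaks, both overlapping the gene body of the reference table (Entrez gene 21416, chr19:55741797-55933659). The promoter peak, chr19:55741494-55742006, had a score of 52 and reached from 316 bp before to 196 bp after the upstream start site. The score is a whole number that the authors' processing gave to each peak, on a scale that the sources used here do not give, and it served only to rank peaks within this list. Over all peaks it ran from 13 to 2569 with a median of 65, and 37.1% of peaks scored below the Tcf7l2 promoter peak. The other peak, chr19:55749595-55749886, lay 7.93 kb after the start site in an intron, with a score of 43. The peaks were 7.59 kb apart, and both scored under the median of the list. The downstream start site, at position 55895321, was 145 kb from the closest peak.

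Ctnnb1, the gene of beta-catenin itself (Entrez gene 12387, chr9:120933400-120960507), was the 1 member with no peak. The closest peak lay 351 kb away, was named for 5830454E08Rik and had a score of 316. Tcf7l2, the DNA-binding partner of beta-catenin, had 2 peaks within 100 kb and Ctnnb1 had 0. Over all protein-coding genes 27.7% had a peak within 100 kb, so having none is the more common case. The Tcf7l2 body is also longer, 192 kb against 27.1 kb, and the contrast was not tested.

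Of the member ligands Wnt10b and Wnt2, Wnt10b had its peak closer to the start site. Wnt10b (Entrez gene 22410, chr15:98770712-98778206, minus strand) is an inhibitor of adipocyte differentiation and lies head to head with the gene of another canonical ligand, Wnt1. The peak, chr15:98780141-98780879, was 739 bp wide, had a score of 67 and lay 2.36 kb before the Wnt10b start site. It sat in the 11.7 kb between the gene bodies, 1.94 kb from Wnt10b and 8.98 kb from Wnt1. The list names it for Wnt10b alone because the file names only the nearest start site. Wnt2 (Entrez gene 22413, chr6:17985474-18032772, minus strand) encodes another canonical ligand. Its single peak, chr6:18025149-18025506, lay in intron 2 of 4, 5.12 kb after the start site, with a score of 58. The reference table starts Wnt2 2327 bp before this start site, so the distance depends on the gene model. These ligand peaks stood close to the middle of the list, above 51.9% of all peaks for Wnt10b and above 42.9% for Wnt2.

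The strongest peak within 100 kb of any member was also near Wnt10b but named for another gene. It was chr15:98691717-98692438, nearest to Rnd1, with a score of 898, and 13 peaks in the whole list scored higher. It lay 78.3 kb from Wnt10b and 97.4 kb from Wnt1, and the file annotates it as a (CAAA)n simple repeat. A further Rnd1 peak (score 45) lay 87.2 kb from Wnt10b, and a promoter peak of the histone methyltransferase gene Kmt2d (53) lay 93.8 kb away on the other side. Neither exceeded the median score. The bodies of 4 protein-coding genes stand between the peak of score 898 and Wnt10b, the closest being Arf3 at 7.59 kb from Wnt10b.

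**Figure D1:**
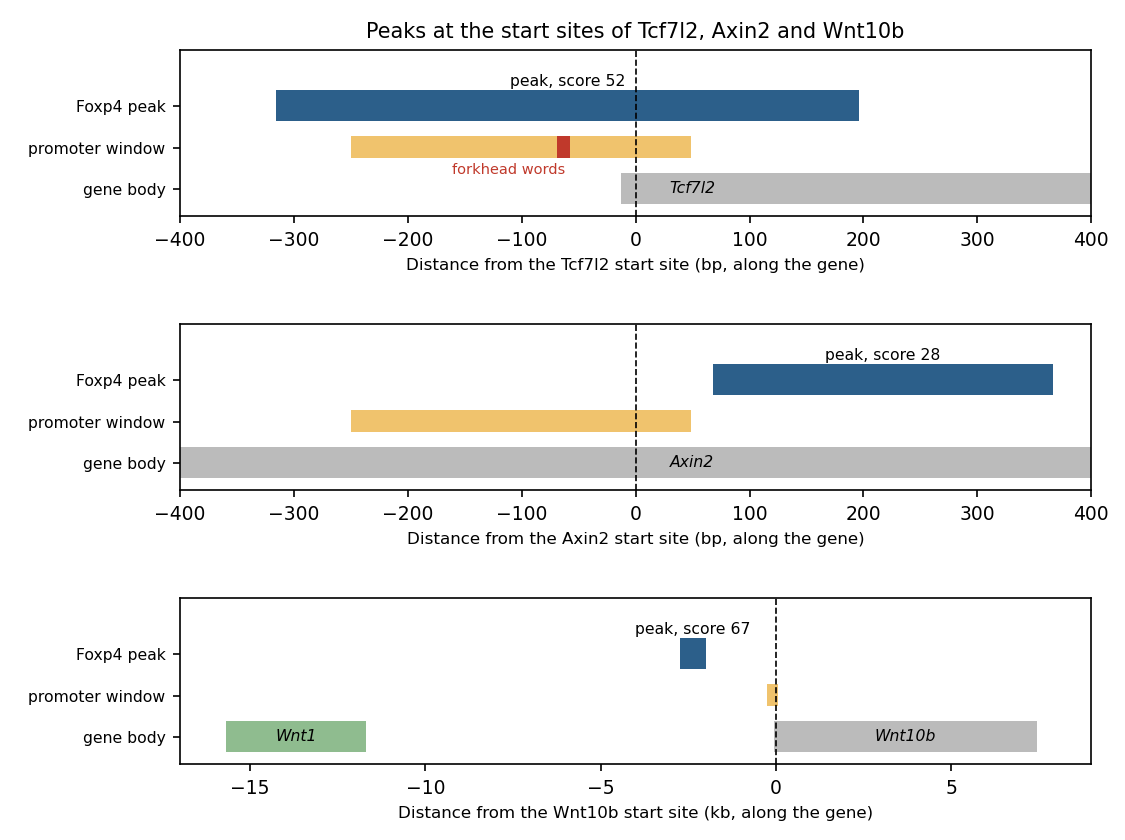
Peaks (blue), RefSeq promoter windows (yellow), gene bodies (grey, Wnt1 in green) and forkhead words (red) by distance from the start site of Tcf7l2 and Axin2 (bp) and of Wnt10b (kb), along each gene. The Tcf7l2 peak spans the start site with the words near its centre, the Axin2 peak begins 68 bp after the start site, and the Wnt10b peak lies between Wnt10b and Wnt1.

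Rspo3 and Lgr5 encode the partners of a system that amplifies Wnt signals: R-spondin proteins bind Lgr receptors and keep Frizzled receptors at the cell surface. Both genes had 1 intergenic peak upstream of the start site, and both peaks scored above the median. The Rspo3 peak (chr10:29554393-29555032) lay 18.8 kb before the start site and had a score of 125, above 81.9% of all peaks. The Lgr5 peak (chr10:115627667-115628023) lay 40.1 kb before the start site with a score of 94, above 70.4%. No other peak lay within 100 kb of either gene body (Rspo3, Entrez gene 72780, chr10:29453106-29535867; Lgr5, Entrez gene 14160, chr10:115450314-115587780, both on the minus strand). The next peak on the chromosome lay 861 kb from the Rspo3 peak and 218 kb from the Lgr5 peak. A distance like that at Rspo3, 785 kb, separated the Axin2 peak from its next neighbour.

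Frizzled proteins are the Wnt receptors, and the member Frizzled genes, Fzd1 and Fzd8, had only distant peaks. Fzd1 (Entrez gene 14362, chr5:4753839-4758216, minus strand) was named for 2 peaks of low score. The nearer of them, chr5:4826249-4826883 with a score of 39, lay 68.4 kb before the Fzd1 start site and inside the last intron of Cdk14, a kinase gene whose product acts on the Wnt co-receptor. The other, chr5:4530588-4531024 with a score of 31, lay 227 kb after the start site and outside the 100 kb limit. Fzd8 (Entrez gene 14370, chr18:9212856-9216201, plus strand) had no peak within 100 kb. The single peak named for it, chr18:8634396-8634847, scored 222, above 92.9% of all peaks, but lay 578 kb before the start site on a (TTTTTG)n simple repeat. For Fzd8, and for the second peak of Fzd1, the name records which start site was nearest and not a site at the gene.

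Sfrp1 encodes a secreted Frizzled-related protein that binds Wnt proteins and so restrains the pathway. Its peak was the highest-scoring of the 11 and also the widest. The peak, chr8:23511440-23512323, was 884 bp wide, had a score of 255 and outranked 94.3% of the list, with 188 peaks above it. It lay 100.4 kb after the start site and 61.8 kb beyond the far end of the gene (Entrez gene 20377, chr8:23411383-23449632, plus strand), in intergenic sequence with no repeat annotated. A second peak, of score 31 and named for Golga7, lay 96.3 kb from the other end of Sfrp1. That peak was the outermost inside the 100 kb limit, and the first outside it, another Golga7 peak with a score of 76, lay 149 kb from Sfrp1.

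Axin2 encodes a scaffold of the complex that destroys beta-catenin and is itself a textbook target of Wnt signalling. Its peak, chr11:108920417-108920715, had the lowest score of the 11 (28), and 11.0% of the list scored lower. It covered 68 to 366 bp after the start site, in intron 1 of 10, and the file marks it as a CpG island. CpG islands were the detailed annotation of 41 of the 3317 peaks (1.24%), but peaks annotated as promoters carry no such detail in the file. The Axin2 peak lay 19 bp beyond the end of the 300-base promoter window, which runs to 50 bases after the start site. Of that window 70.0% was G or C, the same share as in the upstream Tcf7l2 window of that length, and the median over all windows was 52.7%. The reference table starts Axin2 (Entrez gene 12006, chr11:108917828-108950783) 2521 bp before this start site, so the peak also lies inside the longer gene model.

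**Figure D2:**
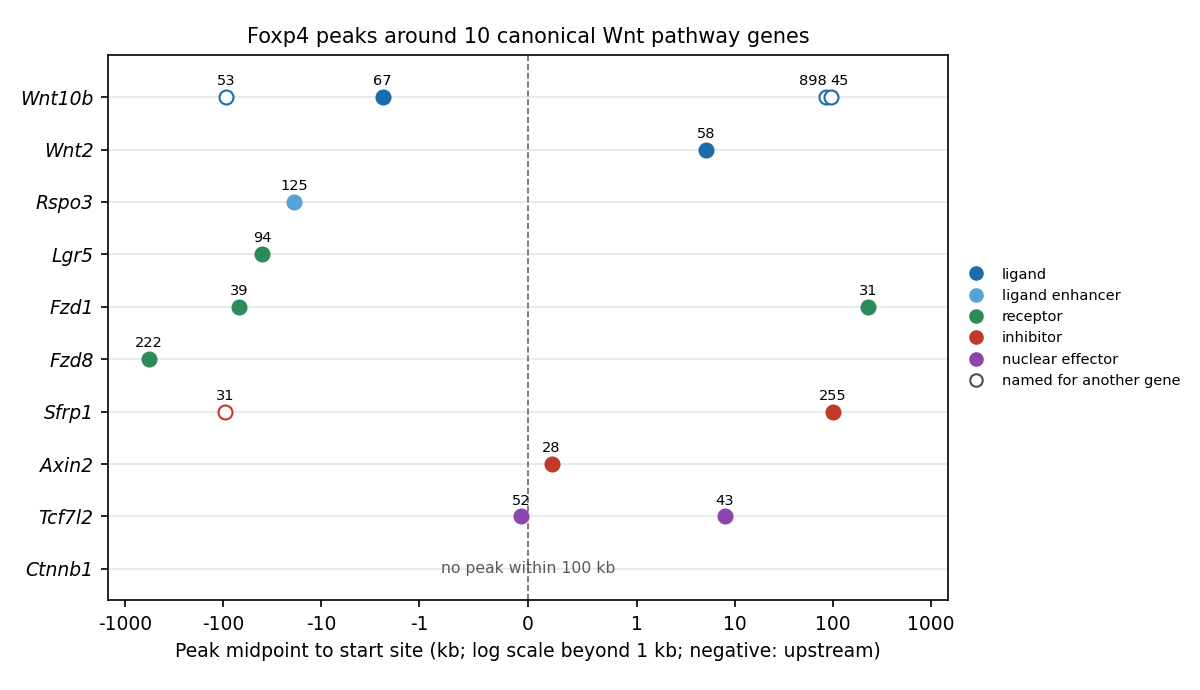
Distance of each peak's midpoint from the start site of the member gene (kb, linear to 1 kb and logarithmic beyond), with the deposited score above each point; filled points are peaks named for the member, open points peaks within 100 kb of its body named for another gene. Only Tcf7l2, Axin2 and Wnt10b had a peak within 3 kb of the start site, and Ctnnb1 had none within 100 kb.

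The highest-scoring of the 11 peaks were not those closest to a start site, and the relation of score to distance was not tested. The peaks in the upper part of the ranking were those of Sfrp1 (255), Fzd8 (222), Rspo3 (125), Lgr5 (94) and Wnt10b (67), of which only the last lay within 10 kb of a start site. Those of Wnt2 (58), Tcf7l2 (52 and 43), Fzd1 (39 and 31) and Axin2 (28) were under the median of the list. The 3 peaks closest to a start site, each under 3 kb away, scored 67, 52 and 28. Over the 11 peaks the median score was 58 and the median width 452 bp, against 65 and 393 bp over all 3317 peaks. These scores have no replicate error, and neighbours in the order cannot be called different.

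**Figure D3:**
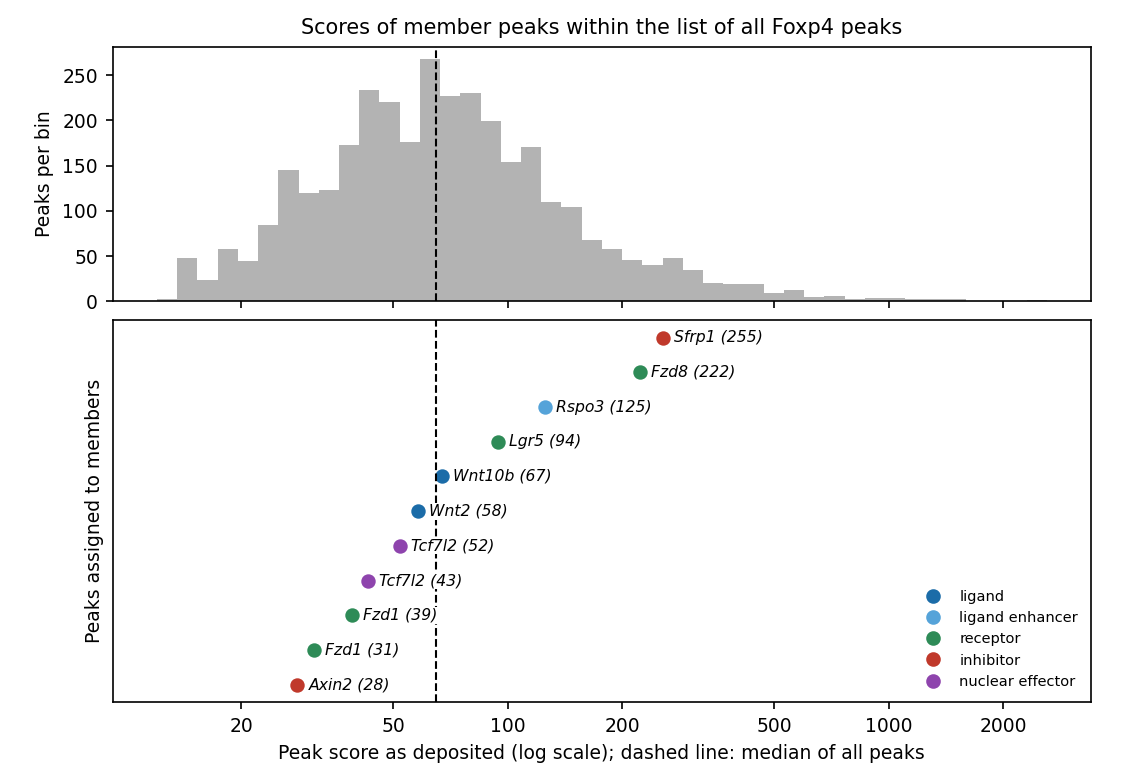
Upper panel, number of peaks per bin of deposited score (log axis) for all 3317 peaks; lower panel, the 11 peaks named for members, coloured by role, with the score in brackets. The dashed line is the median of all peaks, 65, and 5 of the 11 member peaks lie above it.

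By annotation class, 6 of the 11 peaks were intergenic (54.5%, against 50.5% of all peaks), 4 lay in introns (36.4% against 38.3%) and 1 was annotated as a promoter (9.09% against 8.38%). Within 3 kb of a start site lay 3 of the 11 (27.3%, against 16.5% of all peaks), and 6 lay more than 10 kb away (54.5% against 72.3%). Upstream of the start site lay 6, and 5 lay downstream. A repeat was annotated at 1, that of Fzd8 (9.09% against 23.3%). With 11 peaks each of these shares moves by 9.09 percentage points with 1 peak.

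A peak was named for 9 of the 10 members, where 9.11% of 21887 protein-coding genes had one, and 8 of 10 had a peak within 100 kb of the gene body, where 27.7% of those genes did. Within 3 kb of the start site 3 of 10 members had a peak named for them (Tcf7l2, Axin2 and Wnt10b), against 2.08%. The members were picked for their peaks, and nothing is read from these counts. Most members also had wide gaps to other genes when the gaps on the left and right were added. The summed gaps to the nearest protein-coding gene bodies on the left and right had a median of 356 kb over the members and 48.0 kb over all protein-coding genes, and 8 of 10 members were above percentile 85. The exceptions were Wnt10b (19.2 kb) and Wnt2 (60.6 kb). A wide sum can hide a close neighbour: Ctnnb1 lay 3.95 kb from Ulk4, and Lgr5 lay 17.5 kb from Zfc3h1 and overlapped A930009A15Rik. Fzd8, with the widest gaps (1346 kb), also had the most distant peak. A gene far from its neighbours is the nearest gene of more sequence, and the part of this spacing in the counts was not tested.

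The other genes of the pathway were taken from a list of 92 genes that includes the 10 members and was drawn up with earlier results of these data known. Its roles are finer than those of the opening: Axin2 is counted there as a cytoplasmic component, and Lgr5 with the R-spondin receptors and not with the 15 Wnt receptors and co-receptors. A peak was named for 12 of the 82 other genes (14.6%, against 9.11% of protein-coding genes), and 31 of the 82 had one within 100 kb (37.8% against 27.7%). The 9.11% of protein-coding genes is also the share to set beside each count by role that follows. Among receptors and co-receptors, 3 of 13 non-members had a named peak. They were Ror2, whose intron 1 holds the highest score of the list (2569, on a (CAA)n simple repeat) and which has a second peak of 31 on an L1 element, Ror1 (62) and Fzd6 (63, at -19.7 kb). Ror1 and Ror2 are receptors of Wnt5a, whose signals mostly run outside the beta-catenin route. Among ligands, 2 of 17 non-members had one, namely Wnt5b, 291 bp after the start site with a score of 139, and Wnt16, with peaks of 68 at -7.69 kb and 49 at -86.0 kb. The more distant Wnt16 peak lay in an intron of another gene. Wnt5b was the only one of the 12, and so of the 82, with a peak named for it within 3 kb of its start site. Over all protein-coding genes that share was 2.08%, and nothing is read from this count.

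Nuclear effectors included 4 of 12 non-members with a named peak, against 9.11% of protein-coding genes. Of these 4, 3 were Tle genes, which encode the Groucho-type co-repressors that TCF/LEF proteins recruit when beta-catenin is absent. All their peaks lay more than 30 kb from the start site. Tle1 had peaks of 75 at 186 kb and 23 at 232 kb, of which 1 was within 100 kb of the gene body. Tle3 had peaks of 34 at -34.8 kb and 19 at 33.0 kb, the latter in intron 8 of 19. Tle4 had 1 of 37 at -93.9 kb. The fourth was Bcl9l, a co-factor of beta-catenin, with a score of 21 at 4.30 kb. Among secreted or surface inhibitors, 2 of 14 had a peak. Kremen1, a receptor of the Dkk inhibitors, had one of 442 in exon 2 of 9, and Apcdd1 one of 94 at -61.8 kb on an L1 element. Wls, which carries Wnt proteins to the cell surface, had a peak of 90 in intron 2. Of the 17 cytoplasmic components Axin2 alone had a named peak (5.88%, against 9.11% of protein-coding genes). Axin2 is a member, so the count for non-members was 0 of 16, and none was named for Apc, Gsk3a, Gsk3b, Axin1 or the Dvl genes. Within 100 kb of the gene body 5 of the 17 had a peak (29.4%, against 27.7%). No non-member had a named peak among the R-spondins (0 of 3) or among the R-spondin receptors and genes of receptor turnover (0 of 4). Differences between the roles were not tested.

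**Figure D4:**
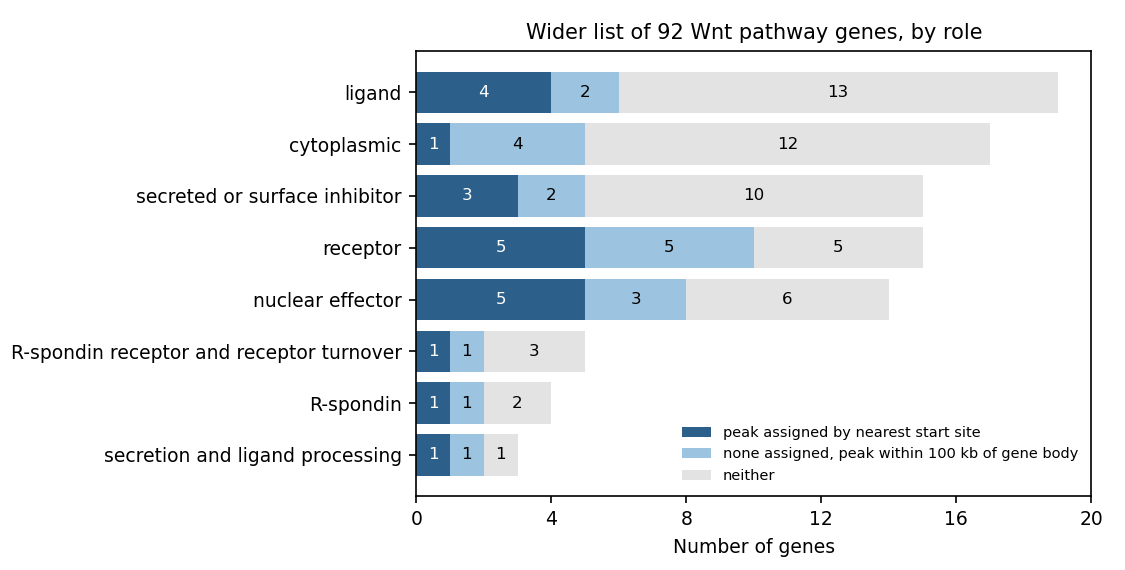
Number of genes in the list of 92 Wnt pathway genes by role (bars from 0), divided into genes for which a peak is named, genes with none named but a peak within 100 kb of the gene body, and genes with neither. A peak was named for 5 of 15 receptors, 5 of 14 nuclear effectors and 1 of 17 cytoplasmic components, against 9.11% of protein-coding genes. Without the members, which were picked for their peaks, these counts were 3 of 13, 4 of 12 and 0 of 16.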

How the data were processed

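Foxp4 ChIP DNA and input DNA of induced stromal vascular cells were sequenced, and the peak list of the ChIP library was analysed. Per the file headers, the authors annotated a narrowPeak file against mm10 with annotatePeaks.pl. The submitters' processing notes name MACS2, Bowtie2, SAMtools, Picard and deepTools (3.3.0) with no roles or settings. How the input was used in peak calling was not given in the sources used here. The deposited score per peak, the positions and the distances to start sites were used as deposited. All 3317 peaks were kept, and 1 line without a peak was left out.

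Gene bodies came from a RefSeq table of GRCm38.p6 (21887 protein-coding genes on chromosomes 1 to 19, X and Y; all 92 list genes matched by symbol). The start site implied by each member peak's distance equalled a start site of the RefSeq promoter table wherever that table held the gene. A peak was counted for a gene when the file names it, or when its nearest edge lay within 100 kb of the gene body. The members, the list and its roles were chosen with earlier results of these data known. Every member was named, with every peak of its own, every neighbour's peak within 100 kb and every list gene with a named peak. The comparison of forkhead words with peak midpoints was added after the Tcf7l2 sequence was seen. No test was made, since there was 1 ChIP library. The counting and word search were tested on simulated data (Python 3.11.15, pandas 2.3.3). Alternatives covered the score minimum, the distance limit, the peak midpoint and the promoter window. A genome sequence was not used here, so words were searched in promoter windows and not in distal peaks.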

Additional observations from a re-analysis of the deposited data

How the results depend on the processing

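The alternatives gave 25 recomputed values of the 6 counts, and 13 of the 25 stayed within 1.5 times the reported count. Keeping peaks at or above the median score moved all 6: 5 members then had a named peak (Wnt10b, Rspo3, Sfrp1, Lgr5 and Fzd8, against 5.14% of protein-coding genes), 4 had one within 100 kb (against 16.6%) and 1 had one within 3 kb (against 0.991%). The peaks named for members numbered 5, those within 100 kb 5, and the list genes with a named peak 12. With a score of at least 30, Axin2 lost its peak. Within 20 kb of the gene body 5 members and 6 peaks remained (11.1% of all genes). A peak overlapped the body of 3 members, with 4 peaks (5.72%), and 7 peaks lay within 50 kb. By distance to the gene body 39 of the 92 list genes had a peak within 100 kb (42.4%, against 27.7% of protein-coding genes). Each change follows from using fewer peaks or another distance. No paired analysis was possible because the ChIP group has 1 library, and no library could be left out. Read depth is unknown, so weaker sites at genes without a peak were not detectable here.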

Other observations

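Of the 92 list genes, 19 had no peak named for them but lay within 100 kb of one. Over all protein-coding genes 27.7% had a peak within 100 kb and 9.11% a named one. Standing near a peak named for another gene is therefore common, and nothing is read from the count of 19. Promoter peaks of Hadh (score 62) and Cyp2u1 (139) lay 48.1 kb and 78.9 kb from Lef1, which encodes another TCF/LEF protein. A peak of 205 lay inside Tnks2, an Axin-modifying enzyme gene, in intron 19 of 26, and was named for Fgfbp3. A peak of 303 lay 44.5 kb from the secreted inhibitor gene Dkk3 and was named for Mical2. A peak of 49 lay 6.44 kb from the co-receptor gene Lrp6 and was named for Bcl2l14. The Kremen1 peak of 442 lay 31.8 kb from Znrf3, which removes Frizzled receptors from the cell surface. These genes were picked after their values were seen.

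The position of the forkhead words at the Tcf7l2 promoter peak was set beside that in the other promoter windows under a peak. Of the 74 overlapped windows with a forkhead word (71 genes), 22 (29.7%) had the centre of a word within 25 bp of the peak's midpoint, and the median distance was 81 bp. The Tcf7l2 window was 1 of the 22. Windows of neighbouring start sites can share a word and a peak, as at Ing3 and Zc3h13, so the 22 windows hold fewer than 22 separate sites. Words outside the 300-base windows were not seen. The 29.7% has no share for randomly placed words beside it, and no test was made.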
